A study of Homo sapiens with 108 samples.

Results

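HMV-I is 1 of 6 human melanoma cell lines whose gene expression was profiled after carbon ions or X-rays. The comparison described here sets the 3 arrays of HMV-I cells collected 3 h after 2 Gy of carbon ions against the 3 arrays of unirradiated HMV-I cells of the carbon-ion set. These are 6 of the 108 arrays of the series, picked through their titles, and every measured gene was examined. Beside them stand 3 HMV-I arrays from 1 h after the same dose of carbon ions, the HMV-I X-ray set (3 unirradiated arrays and 3 from 3 h after 2 Gy are compared here), and the carbon-ion arrays at 0 Gy and at 3 h of 92-1, C32TG, Colo679, HMV-II and MeWo (30 arrays). The cells carried no named transgene, knockdown or drug, and each group is a single established line. Nothing in the labels ties replicate arrays to separate cultures, so p-values measure only the spread between arrays, which may be technical.

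Carbon ions deposit their energy densely along each particle's track and cause clustered DNA breaks. Breaks activate the ATM and ATR kinases, which stabilise p53 and block the CDK1 kinase, so that cells halt before mitosis. The genes of G2 phase and mitosis are transcribed in 1 wave late in the cycle through promoter elements known as the CHR and the CCAAT box, while p53 switches on CDKN1A, MDM2 and other targets within hours. Immediate early genes such as FOS, induced without new protein synthesis, rise and decay before either programme.

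Each array held 54359 probes, of which 29914 had a value on all 18 HMV-I arrays and a mean above the filter on dim probes. These named 12795 genes, each represented by its brightest probe. Levels below are log2 of the deposited intensity after quantile normalization, changes are differences of such levels, and errors of changes are standard errors (SE) of the limma fit. A change was called at a limma adjusted p below 0.05 (Benjamini-Hochberg over all kept probes, two-sided). Replicate arrays correlated with r = 0.992 to 0.997, and 3 h arrays correlated with unirradiated arrays with r = 0.987 to 0.994. The markers went in part against a pigment cell: 8 of 16 melanocyte markers on the array passed the filter, and TYR (-0.49), TYRP1 (-1.22), MLANA (-1.03), SOX10 (-0.66) and EDNRB (-0.70), all defining genes of pigment cells, were dim in HMV-I and brighter in each of the other 5 lines. MITF (4.29), the lineage's master regulator, was bright but below the other lines too. The other melanocyte markers that passed were RAB27A (4.77), KIT (2.77), MC1R (1.53), PMEL (1.48), SLC45A2 (1.44), TRPM1 (1.20) and GPR143 (-0.11). KIT was brighter in only 1 of the other lines, and TRPM1 in 3. Of 9 markers of the keratinocyte list on the array 7 lay below the filter, among them the keratins KRT5 (-1.51), KRT1 (-1.08) and KRT14 (-0.62). The 2 that passed, the epithelial marker EPCAM (3.82) and SFN (2.97), were brighter in HMV-I than in any of the other lines. Of 8 endothelial markers 4 passed: PECAM1 (3.32), ESAM (2.83), VWF (-0.18) and CLDN5 (-0.19). At 3 h after carbon ions 1 of 2 keratinocyte markers rose (EPCAM, by 0.25), and 1 of 5 leukocyte markers rose (MS4A1, by 0.50). Of 6 fibroblast markers 1 fell (PDGFRB, by 0.41 on the log2 scale), and of 4 endothelial markers 0 were called. These counts stand against 9.08% of all genes that rose and 5.59% that fell, and lists this short say little. The part of any such cells in the results was not tested.

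At 3 h after carbon ions many genes of HMV-I moved by small amounts. Of the 12795 genes, 1162 rose (9.08%) and 715 fell (5.59%). Over probes, 4312 of 29914 were called (14.4%), 2354 higher (7.87%) and 1958 lower (6.55%). The share of calls that were higher was 54.6%, 49.1% with median centring and 45.2% with values as deposited. Over genes 14.7% were called. The median size of a called change was 0.36, only 332 called probes passed 1.5-fold, and of the 15 beyond 2-fold 2 were higher and 13 lower. The larger changes were therefore mostly falls. Groups of 3 did not overlap, with all 3 irradiated arrays above the unirradiated ones, in 21.3% of genes, and with all 3 below in 12.5%. Without array 1 of the unirradiated group 1920 probes were called, and without array 3 of the 3 h group 2249. Where a called gene had another kept probe, that probe had the opposite sign in 131 of 337 genes, and was itself called in 20 of them.

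The rises and falls named next were the largest called ones among genes whose groups of 3 did not overlap. Their lack of overlap was therefore set by this choice. The largest rise was that of CHAC1, an enzyme that degrades glutathione and a known target of the integrated stress response. CHAC1 read 2.73, 2.70 and 2.69 in the unirradiated arrays and 3.73, 3.71 and 3.66 at 3 h. The groups were far apart, and the rise was 1.00 ± 0.075 (1.99-fold, adjusted p = 1.1e-07). It was not a steady rise: at 1 h the arrays read 1.86, 1.71 and 1.93, all below the unirradiated ones, a fall by 0.88 ± 0.075 (adjusted p = 1.58e-06). From 1 h to 3 h CHAC1 thus rose by 1.87 ± 0.075 (adjusted p = 4.2e-12), the largest rise between these times among named genes.

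THBS1, the matrix protein thrombospondin, read 0.99, 0.93 and 0.98 without irradiation and 1.90, 1.82 and 1.92 at 3 h, a rise of 0.91 ± 0.11 (adjusted p = 3.46e-05). It was already up at 1 h, at 2.09, 1.88 and 2.40. Its other kept probe was not called (adjusted p = 0.178). LPP, a LIM-domain protein of focal adhesions, went from 0.34, 0.19 and 0.30 to 1.04, 1.04 and 1.24, a rise of 0.83 ± 0.12, but another of its probes had a change of -0.0062. Next came ZNF557 (0.79) and ZNF35 (0.72), both zinc-finger proteins, and TIMM10B (0.77), part of the machinery that imports proteins into mitochondria. ALLC (0.71), ALMS1-IT1 (0.70), CLN8 (0.68), ZFAT (0.68), AP5B1 (0.67) and KLHL25 (0.64) also rose. RELB, a subunit of NF-kB, rose by 0.68 ± 0.12, from 0.23, 0.14 and 0.51 to 1.09, 0.84 and 0.99. H3C4, a replication-dependent histone H3 gene with near-identical copies, rose by 0.64 ± 0.086. EPOR, the erythropoietin receptor, had a change of 0.71, but its unirradiated arrays spread over 1.78, 3.04 and 2.67 and its call was lost under 6 of the alternatives tried (adjusted p up to 0.305).

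**Figure D1:**
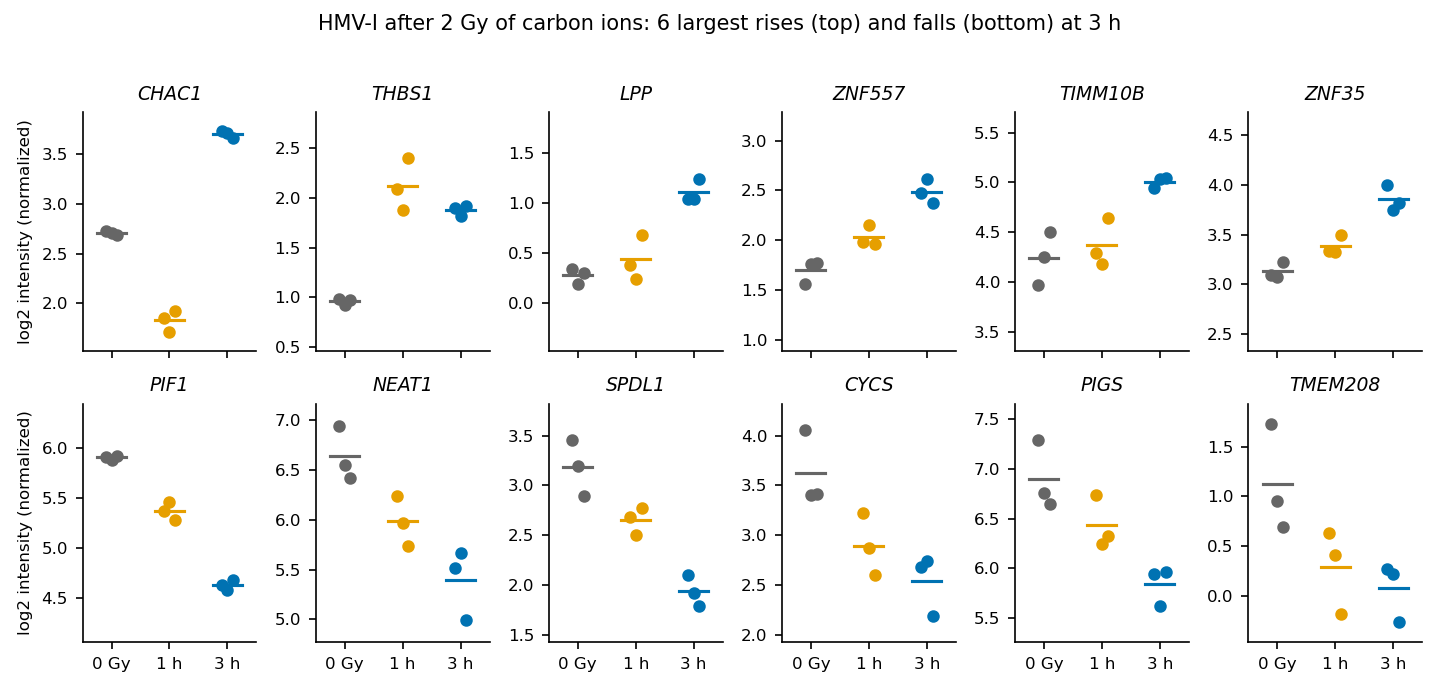
Normalized log2 intensity (vertical axes, 2.4 log2 units in each panel) of the 6 genes with the largest rise and the 6 with the largest fall, in HMV-I arrays of the carbon-ion set at 0 Gy, 1 h and 3 h; points are arrays and bars are means of 3. The genes were chosen among called ones whose 0 Gy and 3 h arrays do not overlap, so the gap between these groups is set by the choice. CHAC1 lies below its unirradiated level at 1 h and above it at 3 h, and THBS1 is already up at 1 h.

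The largest fall was that of PIF1, a DNA helicase that unwinds G-quadruplexes and acts at telomeres. PIF1 read 5.92, 5.88 and 5.93 without irradiation, 5.37, 5.46 and 5.28 at 1 h, and 4.62, 4.57 and 4.67 at 3 h. Every array of a later time lay below every array of an earlier one. The fall at 3 h was 1.29 ± 0.072 in size (fold 0.41, adjusted p = 1.25e-09), after a change of -0.54 at 1 h. NEAT1, the long non-coding RNA that scaffolds paraspeckles, went from 6.95, 6.55 and 6.42 to 5.51, 5.67 and 4.99, a change of -1.25 ± 0.17 (adjusted p = 0.000173). SPDL1, which recruits dynein to kinetochores, went from 3.46, 3.20 and 2.89 to 2.10, 1.92 and 1.79, a change of -1.25 ± 0.14. As the choice of genes required, these 3 were lower in all 3 irradiated arrays.

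CYCS, the electron carrier cytochrome c, had a change of -1.09 ± 0.17, from 4.05, 3.41 and 3.41 to 2.68, 2.74 and 2.19. Its unirradiated array 1 was the highest of the 3, as it was for PIGS (-1.06), TMEM208 (-1.05), UBE2V2 (-1.01), BTF3 (-0.95) and DRD4 (-0.90). None of these lost its call without that array. PIGS anchors proteins to membrane lipids, UBE2V2 is a partner of a ubiquitin-conjugating enzyme in DNA damage tolerance, and BTF3 binds nascent chains at ribosomes. Another probe of PIGS had a change of 0.10. AHSA2P fell by 1.03 on the log2 scale, though another of its probes was not called (adjusted p = 0.118). PIP5K1A, a phosphoinositide kinase, fell by 0.99, and STK24, a kinase, fell by 0.94. FAM72D, at -0.93 ± 0.062, is 1 of a set of near-identical gene copies that a probe may not tell apart. BUB1B and KIF20A, both mitotic, were also among the 15 largest falls. BUB1B, the spindle checkpoint protein BUBR1, went from 2.59, 2.68 and 2.54 to 1.54, 1.91 and 1.56, and KIF20A, a kinesin of cytokinesis, from 3.65, 3.57 and 3.83 to 2.69, 3.00 and 2.65. Of these, array 2 of the irradiated group lay nearest the unirradiated arrays.

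**Figure D2:**
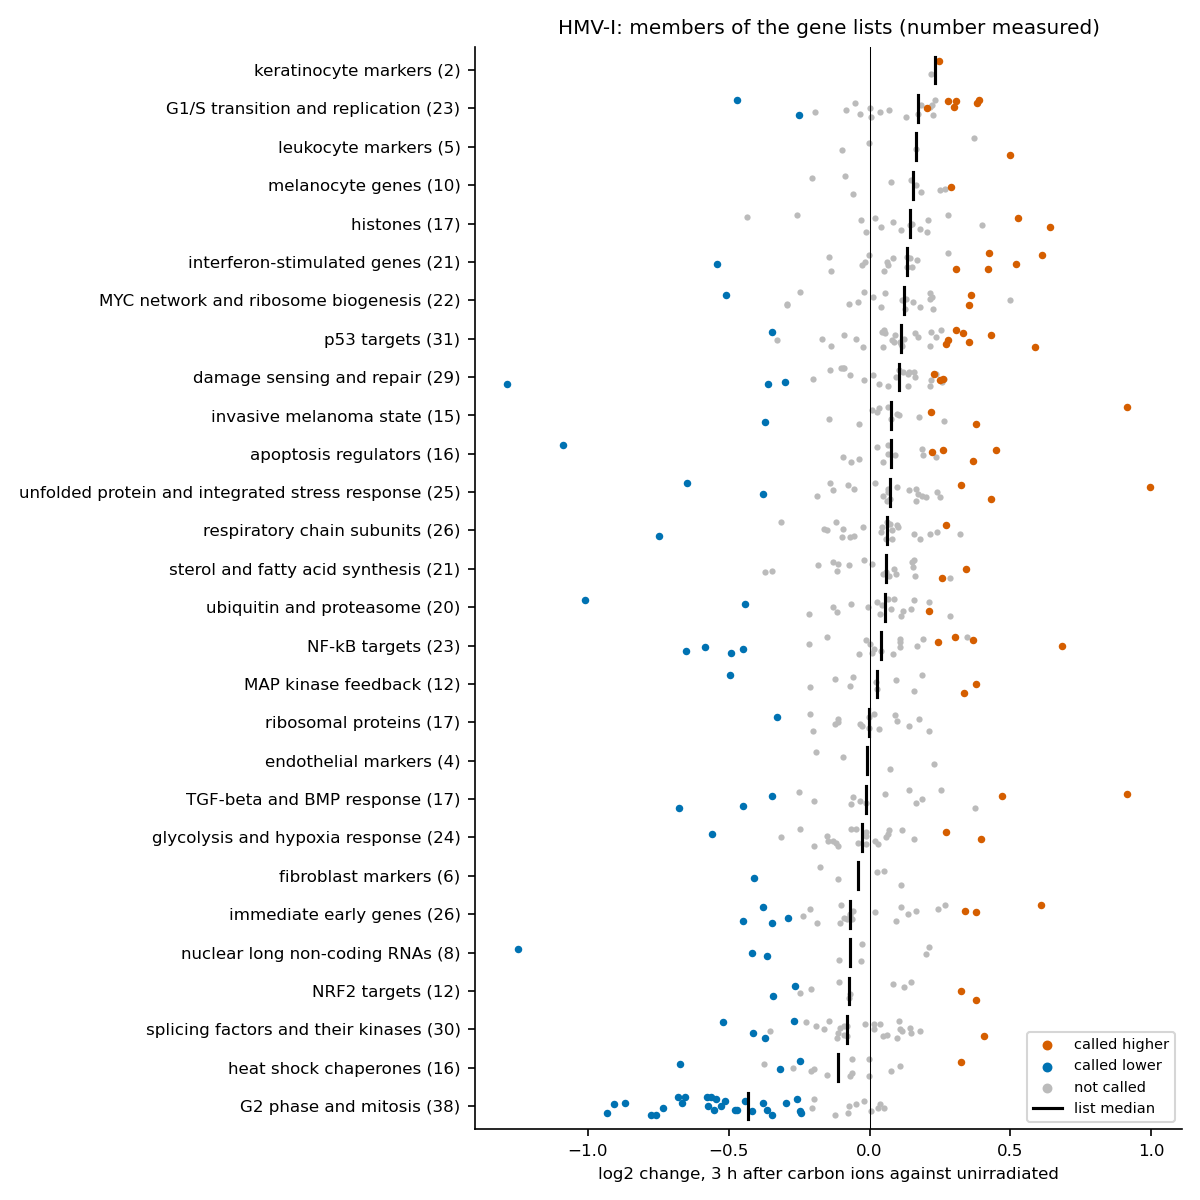
Log2 change at 3 h after carbon ions (horizontal axis) of every measured member of 28 gene lists in HMV-I, with lists ordered by their median; orange and blue points passed the test and grey ones did not, and black bars are list medians. The genes of G2 phase and mitosis lie apart at the bottom with a median of -0.43, while most other lists have medians near 0 and members on both sides.

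Genes of G2 phase and mitosis fell together. Of 42 listed genes 38 were measured, 27 fell and 0 rose (against 5.59% and 9.08% of all genes), and 0 would have risen at an unadjusted p below 0.05 in limma. The median change of the list was -0.43, where that of all genes was 0.027, and 28 members had all 3 irradiated arrays below the unirradiated ones (against 12.5% of all genes). The mean level of the 38 genes was 4.82, 4.84 and 4.89 in the unirradiated arrays, 4.81, 4.83 and 4.83 at 1 h, and 4.41, 4.51 and 4.41 at 3 h. The 1 h arrays lay beside the unirradiated ones, and the 3 h arrays lay below both. In bulk RNA, fewer cells in G2 phase or mitosis and less RNA per such cell cannot be told apart.

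The 27 fallen genes included kinases, spindle proteins, kinesins and centromere proteins. Among kinases and checkpoint proteins, BUB1B changed by -0.93 ± 0.15, TTK, the spindle checkpoint kinase MPS1, by -0.78 ± 0.085, AURKA, which matures centrosomes, by -0.66 ± 0.080, and BUB1 by -0.44 ± 0.13. TTK went from 3.76, 3.93 and 3.98 to 3.19, 3.02 and 3.14, with no overlap. Among spindle proteins, TPX2, which activates AURKA and nucleates microtubules, went from 5.05, 4.97 and 5.19 to 4.09, 4.36 and 4.15, a change of -0.87 ± 0.11. DLGAP5, which stabilises kinetochore fibres, went from 4.56, 4.64 and 4.56 to 3.83, 3.83 and 3.89, a change of -0.73 ± 0.079 with the smallest adjusted p of the list (1.32e-05). Both were lower in every irradiated array. NUSAP1 (-0.57 ± 0.094), HMMR (-0.53 ± 0.069) and ASPM (-0.48) fell as well, and so did ANLN (-0.66), a scaffold of the cytokinetic ring, and CKS2 (-0.35), a partner of CDK1.

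Among kinesins, KIF20A changed by -0.91, KIF4A, which compacts chromosomes and orders the central spindle, by -0.76 ± 0.12, KIF20B by -0.58, KIF11, which pushes spindle poles apart, by -0.54, KIF14 by -0.42, KIF2C by -0.38 and KIF23 by -0.36. All 7 passed. Among centromere and chromosome proteins, CENPA, the histone that marks centromeres, went from 4.44, 4.45 and 4.45 to 3.86, 3.92 and 3.54, a change of -0.68 ± 0.089. SGO2 (-0.56), which protects cohesion, TOP2A (-0.55), NDC80 (-0.51), CENPE (-0.47) and CENPF (-0.29) fell too. The smallest falls that passed were those of CDC20 (-0.26), PTTG1, or securin (-0.25), and ESPL1, or separase (-0.24), all proteins of chromatid separation or its control.

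The list was not uniform. PLK1 (-0.20, adjusted p = 0.147), AURKB (-0.12), CCNB1, or cyclin B1 (-0.071), CDK1, the mitotic kinase (-0.048), MAD2L1 (0.031) and BIRC5, or survivin (0.052), were not called. For CCNB1 the arrays overlapped, with 7.19, 7.11 and 7.25 against 7.08, 7.20 and 7.05.

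**Figure D3:**
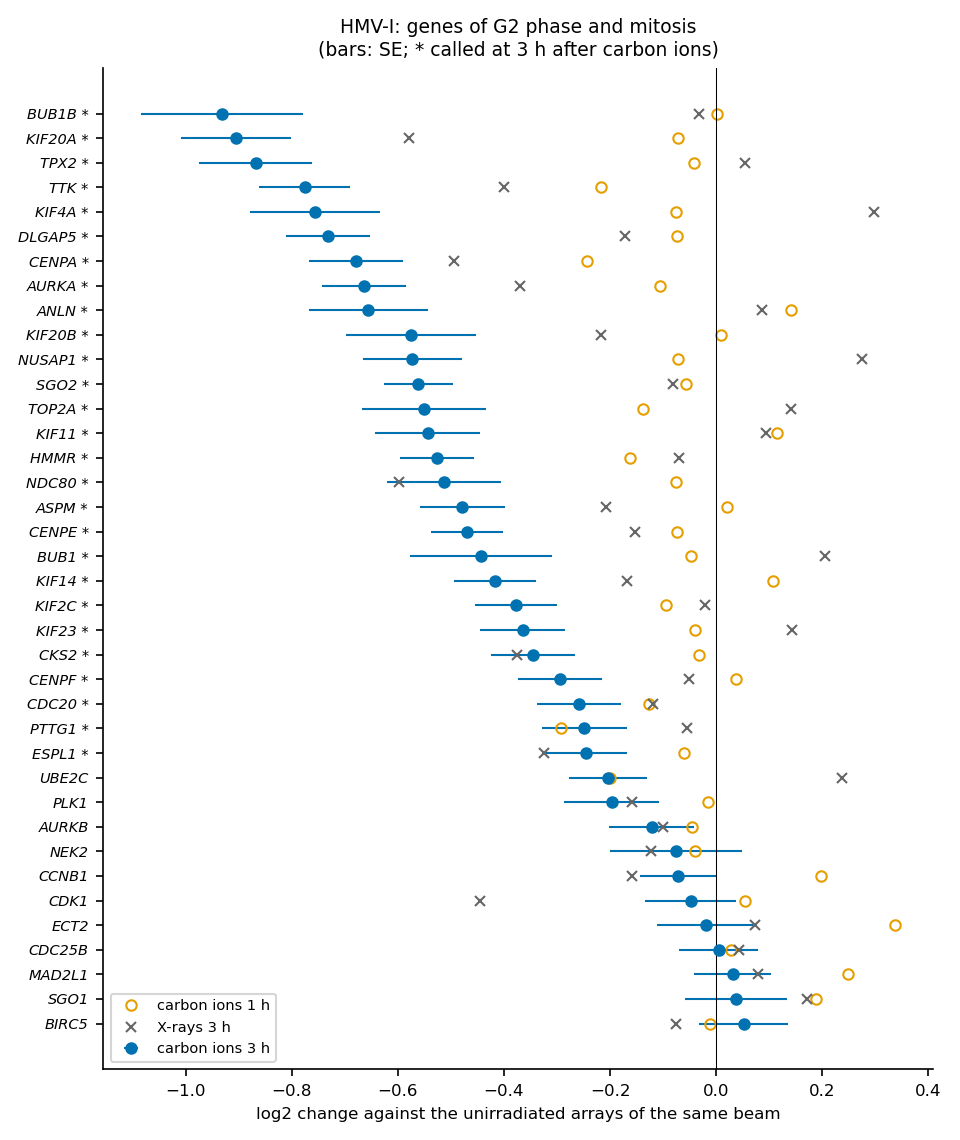
Log2 change (horizontal axis) of the 38 measured genes of G2 phase and mitosis in HMV-I at 3 h after carbon ions (filled points, bars are SE; an asterisk marks the 27 that passed), at 1 h after carbon ions (open circles) and at 3 h after X-rays (crosses), each against 3 unirradiated arrays of its own beam. The filled points run from -0.93 for BUB1B to 0.052 for BIRC5, while most open circles lie near 0.

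Most of the promoters found for these genes hold the elements named above. RefSeq promoters (GRCh38.p14, 250 bases before to 50 after the annotated start) were found for 33 of the 38 genes and searched on both strands for TTTGAA, the usual form of the CHR, and for CCAAT. Neither motif contains the other, and the search allowed hits to overlap, as CCAAT hits on opposite strands do in HMMR. TTTGAA was present in 18 of 24 promoters of mitotic genes that fell (75%), in 4 of 9 of those not called (44.4%), in 10.7% of the promoters of all kept genes and in 15.4% of all promoters in the table. CCAAT was present in 19 of 24 (79.2%), 8 of 9 (88.9%), 36.4% and 35.7%. Both motifs were present in 15 of 24 (62.5%), 4 of 9 (44.4%), 4.46% and 6.08%. The 150 bases before the start are shown for 4 fallen genes with the smallest p among those with both motifs in this stretch, with TTTGAA and CCAAT, or their complements TTCAAA and ATTGG, in capitals. They come from chr14:55191586-55191735 (minus strand), chr2:26785906-26786055 (plus), chr5:163460482-163460631 (plus) and chrX:70289954-70290103 (plus), in this order.
DLGAP5: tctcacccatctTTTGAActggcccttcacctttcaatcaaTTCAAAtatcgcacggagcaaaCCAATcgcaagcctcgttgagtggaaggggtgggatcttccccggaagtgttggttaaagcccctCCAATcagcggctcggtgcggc
CENPA: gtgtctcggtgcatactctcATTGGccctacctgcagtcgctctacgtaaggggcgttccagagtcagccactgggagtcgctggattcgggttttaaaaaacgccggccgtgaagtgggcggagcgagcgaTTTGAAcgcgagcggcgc
HMMR: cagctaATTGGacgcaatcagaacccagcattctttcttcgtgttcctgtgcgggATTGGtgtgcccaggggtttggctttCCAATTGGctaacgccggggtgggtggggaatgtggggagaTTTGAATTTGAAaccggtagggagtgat
KIF4A: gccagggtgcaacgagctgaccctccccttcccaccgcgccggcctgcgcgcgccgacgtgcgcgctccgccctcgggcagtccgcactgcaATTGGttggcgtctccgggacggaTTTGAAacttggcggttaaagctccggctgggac
In CENPA, HMMR and KIF4A a TTTGAA begins 18, 28 and 34 bases before the start, and HMMR holds it a second time directly after. In KIF4A a CCAAT lies on the other strand 58 bases before the start. DLGAP5 has its TTTGAA motifs farther up, 138 and 109 bases before.

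The same letters were followed beyond the mitotic list. Of 461 kept genes with both motifs in the promoter 60 fell (13%) and 33 rose (7.16%). Of all 10340 kept genes with a promoter 5.56% fell and 9.25% rose. Without the members of the mitotic list 45 of 442 fell (10.2%). Among 5931 genes with neither motif 288 fell (4.86%), among 646 with TTTGAA alone 33 fell (5.11%), and among 3302 with CCAAT alone 194 fell (5.88%). The median change was -0.017 with both motifs and 0.035 with neither. These shares are descriptions, and a match of letters does not show that a factor binds.

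The genes of the G1/S transition and of DNA replication mark the preceding part of the cycle. Of 23 measured, 6 rose and 2 fell (against 9.08% and 5.59% of all genes), with a median of 0.17. E2F2, a transcription factor of S-phase entry, went from 4.77, 4.69 and 4.70 to 5.05, 5.21 and 5.05, a rise of 0.38 ± 0.069 (adjusted p = 0.00144). CCNE2, or cyclin E2, went from 2.59, 2.62 and 2.72 to 3.08, 2.96 and 3.06, a rise of 0.39 ± 0.080. Neither gene's groups overlapped. TYMS (0.30), which makes thymidylate, MCM2 (0.31) of the replicative helicase, SLBP (0.28), which binds histone mRNA, and GINS2 (0.20) also rose. UHRF1 (-0.47), which maintains DNA methylation, and RRM1 (-0.25), the large subunit of ribonucleotide reductase, fell. The number of risen genes was 10 with median centring or with the values as deposited, 2 without array 1 of the unirradiated group and 3 without array 3 of the 3 h group. Among 17 histone genes, 2 rose and 0 fell (3 and 2 at an unadjusted p below 0.05 in limma): H3C4 and H4C8, the latter by 0.53 ± 0.097, though another H4C8 probe was not called (adjusted p = 0.098).

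Of 31 measured targets of p53 in HMV-I, 7 rose (against 9.08% of all genes) and 1 fell (against 5.59%), with a median of 0.11. PHLDA3, an inhibitor of AKT, rose most, from 2.31, 2.59 and 2.34 to 3.07, 2.85 and 3.08, by 0.59 ± 0.11 (adjusted p = 0.00166). SESN2, a stress sensor upstream of mTORC1, went from 2.61, 2.73 and 2.60 to 3.03, 3.06 and 3.14, a rise of 0.43 ± 0.074. CDKN1A, the CDK inhibitor p21, went from 6.01, 5.99 and 5.98 to 6.24, 6.49 and 6.24, a rise of 0.33 ± 0.073 (fold 1.26, adjusted p = 0.00581). In these 3 genes every irradiated array lay above every unirradiated one. INKA2 (0.35), SERTAD1 (0.31), TIGAR (0.28) and RPS27L (0.27) rose as well. However, another probe of INKA2 was not called (adjusted p = 0.272) and a further one gave -0.21. Another probe of RPS27L was at 0.053 and not called (adjusted p = 0.768). ZMAT3, an RNA-binding p53 target, fell (-0.35, adjusted p = 0.0304), with 0 falls in the list without either of arrays 1 and 2 of the 3 h group or any array of the unirradiated group. MDM2, the ligase that degrades p53, stayed without a call at 0.089 ± 0.077, with arrays of 1.62, 1.75 and 1.69 against 1.73, 1.90 and 1.69. GDF15, a secreted stress cytokine, was at 0.051 ± 0.077 (adjusted p = 0.698), with arrays of 6.24, 6.14 and 6.23 against 6.18, 6.20 and 6.38. For both the groups overlapped. Before irradiation CDKN1A, GDF15 and SESN2 were lower in the carbon-ion set than in the X-ray set of this line, with differences of -1.20, -1.46 and -1.83.

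**Figure D4:**
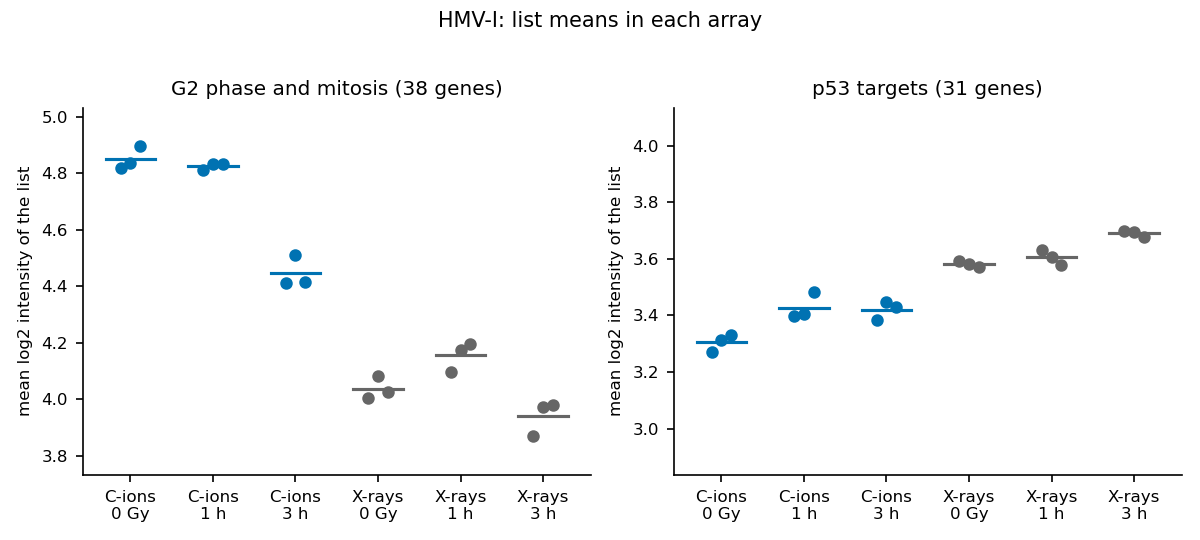
Mean log2 intensity over the 38 mitotic genes (left) and the 31 p53 targets (right) in each of the 18 HMV-I arrays, by beam and time; points are arrays and bars are means of 3. The mitotic mean drops from 4.82 to 4.89 without irradiation to 4.41 to 4.51 at 3 h after carbon ions, and the X-ray set lies lower from the start, at 4.003 to 4.08.

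The counts of genes of repair, cell death and stress stand against 9.08% of all genes that rose and 5.59% that fell. Of 29 genes of damage sensing and repair, 3 rose and 3 fell: PIF1, EXO1 (-0.36), a resection exonuclease, and RAD52 (-0.30) were lower, and MSH6 (0.25), PALB2 (0.26) and NBN (0.23) higher. Another probe of RAD52 had a change of -0.016 (adjusted p = 0.941), and another of NBN was at 0.20 and not called (adjusted p = 0.172). The number of rises was 1 without array 3 of the 3 h group, 0 without array 1 of the unirradiated group, and 5 with median centring or values as deposited. Of 16 apoptosis regulators, HRK (0.45), BMF (0.37), BAK1 (0.26) and CFLAR (0.22) rose and CYCS fell. The call of CFLAR was lost under 8 of the alternatives tried, its other 2 probes and the replicate block among them (adjusted p up to 0.63). That of BAK1 was lost under 6 (adjusted p up to 0.123) and that of BMF under 3 (adjusted p up to 0.0876). Median centring and values as deposited were among these for both. Without array 1 of the unirradiated group 1 rise was left, and 2 without array 2 of the 3 h group. Of 25 genes of the unfolded protein and integrated stress response, 3 rose and 2 fell: CHAC1, SESN2 and SLC7A11 (0.33), the cystine carrier, were higher, and AARS1 (-0.65) and PSAT1 (-0.38), which serve amino acid metabolism, lower. The call of PSAT1 was lost under 6 alternatives, median centring and values as deposited among them (adjusted p up to 0.18). That of AARS1 was lost without array 1 or array 3 of the 3 h group (adjusted p up to 0.0638). SLC7A11 lost its call with values as deposited (adjusted p = 0.0548). ATF4, the factor that drives this response, was at 0.19 (adjusted p = 0.19). Of the list, 7 rose with median centring and 6 with values as deposited. Of 16 measured genes of the heat shock chaperone list, HSPD1 (-0.67), HSPH1 (-0.32) and HSPA1A (-0.25) fell. HSF1 (0.33), a transcription factor and not a chaperone, rose. The call of HSF1 was lost with median centring, with values as deposited, without array 2 of the unirradiated group and with another probe (adjusted p up to 0.592), and that of HSPA1A under 6 alternatives, median centring and values as deposited among them (adjusted p up to 0.878). In the list 1 fall was left without array 1 of the unirradiated group or arrays 1 or 3 of the 3 h group.

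The promoter of CHAC1 is shown because the gene had the largest rise and because TGATGNAA is the form of the amino acid response element that ATF4 binds. The letters occur once in the 250 bases before its start (GRCh38.p14, chr15:40953221-40953470, plus strand), on the other strand from 209 to 202 bases before, in capitals below. They occur in 2.21% of promoters of kept genes and in 3.67% of all promoters.
CHAC1: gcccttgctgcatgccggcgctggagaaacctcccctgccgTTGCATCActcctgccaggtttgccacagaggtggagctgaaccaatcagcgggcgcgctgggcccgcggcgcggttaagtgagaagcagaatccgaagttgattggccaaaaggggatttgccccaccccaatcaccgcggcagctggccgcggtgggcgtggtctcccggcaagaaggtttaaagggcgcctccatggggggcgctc

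Immediate early and NF-kB genes were raised at 1 h more often than at 3 h, by counts whose difference is tested gene by gene further on. At 1 h, 10 of 26 immediate early genes were higher and 0 lower (15 and 0 at an unadjusted p below 0.05 in limma), against 2.43% and 1.29% of all genes. At 3 h, 3 were higher and 4 lower, against 9.08% and 5.59% of all genes. FOS, a subunit of AP-1, read 2.54, 2.63 and 2.84 without irradiation, 3.92, 3.87 and 3.67 at 1 h and 2.14, 2.46 and 2.28 at 3 h. It was thus up at 1 h by 1.15 ± 0.092 and below its start at 3 h, at -0.38 ± 0.092 (adjusted p = 0.0111, and 0.0518 without array 1 of the 3 h group). CCN2, a secreted matricellular protein, followed the same course, with 0.65 at 1 h and -0.35 at 3 h, though the latter was not called with median centring or with values as deposited (adjusted p up to 0.194). ATF3, a stress-induced repressor, was at 1.00 ± 0.10 at 1 h and at 0.27 at 3 h (adjusted p = 0.0849). KLF10 (-0.45) and NR4A3 (-0.29) were lower at 3 h, and FOSL2 (0.61), FOSL1 (0.38) and SRF (0.34) higher. Other probes of FOSL2 gave -0.12 and -0.0029, and other probes of FOSL1 (adjusted p = 0.0926) and NR4A3 (adjusted p = 0.671) were not called. Without array 3 of the 3 h group or array 1 of the unirradiated group 2 of these genes were lower in place of 4, and with median centring 5 were higher in place of 3.

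Of 23 NF-kB targets, 7 were higher at 1 h and 0 lower (9 and 2 at an unadjusted p below 0.05 in limma), and 4 were higher and 4 lower at 3 h (against 9.08% and 5.59% of all genes). At 3 h RELB, NFKBIE (0.37), IRF1 (0.30) and NFKB1 (0.24) were higher, genes of the pathway's own subunits and regulators apart from IRF1. Another probe of IRF1, at 0.24, was not called (adjusted p = 0.251). The chemokine CXCL2 went from 3.80, 3.95 and 3.74 to 3.25, 3.24 and 3.24, a change of -0.58 ± 0.082, and IL1A (-0.65), NFKBIZ (-0.49) and BIRC2 (-0.45) were lower too. Without array 1 of the unirradiated group 2 targets rose. Of 21 interferon-stimulated genes 5 rose and 1 fell, against the same shares of all genes. IFIT3 went from 1.60, 1.66 and 1.78 to 2.27, 2.27 and 2.34, a rise of 0.61 ± 0.078 without overlap, and IFI44 (0.52), RIGI (0.42), ISG20 (0.42) and IFIT1 (0.31) rose, while OAS3 fell (-0.54). Of the 5 rises, 2 were left without array 1 of the unirradiated group and 3 without array 3 of the 3 h group. Of 17 genes of the TGF-beta and BMP response, 2 rose and 3 fell (against 9.08% and 5.59%), among them ID1, an inhibitor of differentiation, from 3.68, 3.48 and 3.67 to 2.89, 2.93 and 2.97 (-0.68 ± 0.083).

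Set directly against the 1 h arrays, the 3 h arrays had 533 probes higher (1.78%) and 519 lower (1.73%). This comparison shares the 3 h arrays with the one above. Among genes 1.89% were higher and 2.41% lower. Of the 38 mitotic genes 24 were lower and 0 higher (28 and 0 at an unadjusted p below 0.05 in limma), with 15 lower without array 3 of the 3 h group. Of 26 immediate early genes 10 were lower and 0 higher (15 and 0 unadjusted), and of 23 NF-kB targets 7 were lower and 0 higher (10 and 5 unadjusted). The immediate early falls were led by FOS (-1.53 ± 0.092, adjusted p = 5.17e-09), CCN2 (which fell by 1.00), ATF3 (-0.73) and CCN1 (-0.72), a matricellular relative of CCN2. TFRC, the transferrin receptor, read 3.93, 4.15 and 3.93 at 1 h and 2.80, 3.24 and 2.65 at 3 h, a change of -1.11 ± 0.12. After CHAC1 the largest rises were those of KLHL25 (0.83), ZSWIM3 (0.79), TTLL11 (0.68) and DDIT4 (0.68), an mTORC1 inhibitor, though another probe of DDIT4 was at 0.0049 (adjusted p = 0.992). IL6R, the interleukin-6 receptor, rose by 0.66 ± 0.077, from 1.11, 1.02 and 1.23 to 1.81, 1.73 and 1.80. Over all probes the share of calls that were higher was 50.7% here, 35.6% with median centring and 35.7% with values as deposited. The number of calls fell from 1052 to 461 without array 3 of the 3 h group, to 556 without array 1 and to 536 without array 2 of the 1 h group.

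The change after carbon ions was next set against the change after X-rays at 3 h, each from its own unirradiated arrays. The difference was called for 399 probes in the upward direction (1.33%) and 456 in the downward one (1.52%). The unirradiated sets of the beams themselves differed at 14275 of 29914 probes (47.7%), and what separates them other than the beam was not given, so the beam and the set cannot be told apart. Of the 38 mitotic genes 12 had a lower change after carbon ions and 0 a higher one (21 and 1 at an unadjusted p below 0.05 in limma), against 2.42% and 1.48% of all genes. The count was 6 without array 1 of the unirradiated X-ray group and 7 without array 2 of the 3 h X-ray group. After X-rays 8 of the 38 fell and 1 rose (against 5.54% and 10.2% of all genes), with a median of -0.078. The 38 genes started from a different level: 32 were higher and 0 lower in the unirradiated carbon-ion arrays than in the unirradiated X-ray arrays (against 25.9% and 26.8% of all genes), with a median difference of 0.69. KIF4A changed by -0.76 after carbon ions and was at 0.30 after X-rays (adjusted p = 0.105), a difference of -1.05 ± 0.17. TPX2 was at 0.054 after X-rays, a difference of -0.92 ± 0.15, and NUSAP1 at 0.28 (adjusted p = 0.0538), a difference of -0.85 ± 0.13. CENPA (-0.49), TTK (-0.40), KIF20A (-0.58) and AURKA (-0.37) fell after X-rays too, and for these the difference between beams was not called.

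PIF1 (-1.41), AHSA2P (-0.90), THBS1 (0.71), IFIT3 (0.63) and RELB (0.91) changed after X-rays in the direction seen after carbon ions, and no difference between beams was called for them. For PIF1 the difference was 0.13 ± 0.10 (adjusted p = 0.545). NEAT1 changed after X-rays too (-0.79), and while its brightest probe had no called difference between beams, its other probe did (-0.73, adjusted p = 0.0168). CHAC1 rose by 0.36 after X-rays, which was less than after carbon ions by a difference of 0.64 ± 0.11 (adjusted p = 0.00503), but from a much higher level: its unirradiated X-ray arrays read 5.61, 5.41 and 5.47. ZFAT, a zinc-finger protein, fell after X-rays (-0.34) and rose after carbon ions, a difference of 1.02 ± 0.12. CCN1 was at 0.17 after carbon ions and fell after X-rays (-0.71), a difference of 0.87 ± 0.10. TFRC (-1.17) and OLR1 (-1.33), a scavenger receptor, had lower changes after carbon ions; both fell after carbon ions and rose after X-rays. Of the 31 p53 targets 0 differed between beams in either direction (6 higher and 7 lower at an unadjusted p below 0.05 in limma). The number of calls fell from 855 to 248 without array 1 and 470 without array 3 of the unirradiated X-ray group, to 339 and 338 without arrays 2 and 3 of the 3 h X-ray group, to 483 and 491 without arrays 1 and 3 of the 3 h carbon-ion group, and to 507, 526 and 553 without arrays 1, 2 and 3 of its unirradiated group. The share of calls in the upward direction was 46.7%, 29.2% with median centring and 22.3% with values as deposited.

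Finally, the change in HMV-I was set against the mean change of the other 5 lines, over 25564 probes with a value on all 36 arrays. The difference was called for 353 probes in the upward direction (1.38%) and 121 in the downward one (0.473%), and among 11099 genes for 1.41% and 0.595%. The test covers the spread between arrays and not that between lines. Of 28 p53 targets in this fit 12 had a lower change in HMV-I and 0 a higher one (18 and 0 at an unadjusted p below 0.05 in limma), and the count was 12 or 13 under every alternative tried for it. SESN1, a sestrin, was at 0.11 in HMV-I and at 1.84 in 92-1, 2.04 in C32TG, 1.10 in Colo679, 0.91 in HMV-II and 0.21 in MeWo, a difference of -1.11 ± 0.11 (adjusted p = 1.09e-07). GADD45A (-0.84), PLK3 (-0.82), GDF15 (-0.80), POLH (-0.76), SESN2 (-0.73) and FAS (-0.73) differed likewise, and so did ATF3 of the immediate early list (-0.75). The change of GDF15 in HMV-I (0.051) was like that in Colo679 (0.090), HMV-II (0.098) and MeWo (0.034), and it was 2.24 in 92-1 and 1.80 in C32TG. In MeWo the changes of GADD45A (0.0285), PLK3 (-0.090), POLH (-0.45), SESN2 (0.22) and FAS (-0.068) were each below those in HMV-I. CDKN1A was outside this fit because of missing values; its change was 0.33 in HMV-I, 2.17 in 92-1, 1.91 in C32TG, 1.23 in Colo679, 0.91 in HMV-II and 0.57 in MeWo. The median change of the 31 targets was 0.11 in HMV-I and -0.023 in MeWo, against 0.43 in HMV-II, 0.56 in Colo679, 0.64 in C32TG and 0.80 in 92-1. HMV-I and MeWo thus had the lowest medians of the 6 lines, and MeWo, as 1 of the lines in the mean, narrows the tested difference.

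**Figure D5:**
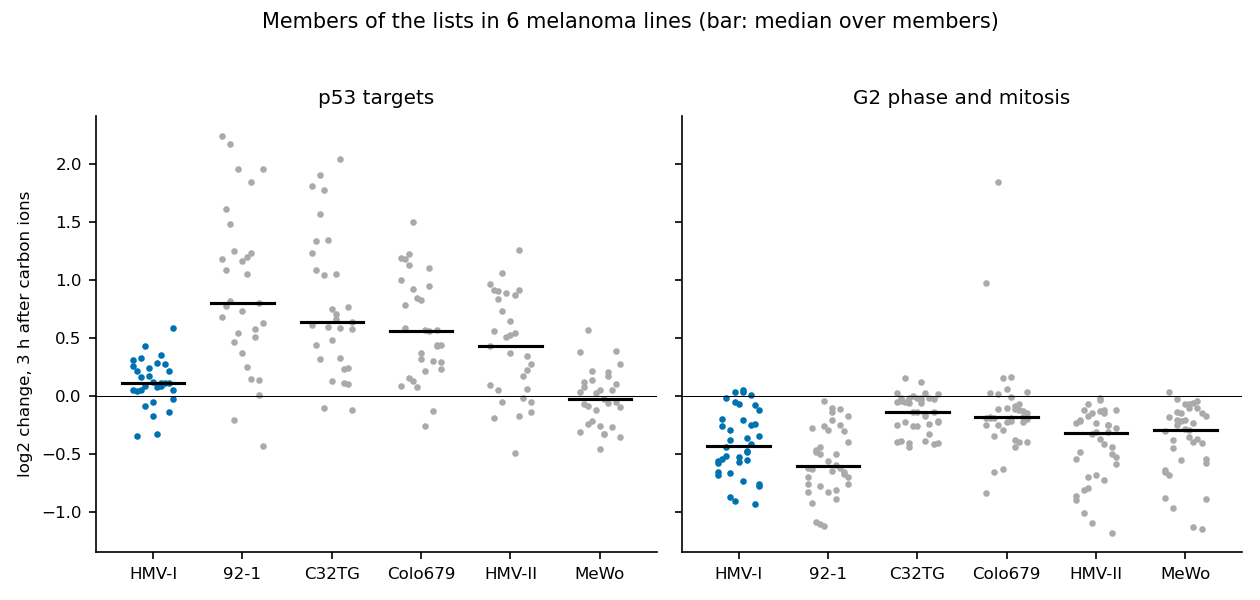
Log2 change at 3 h after carbon ions (vertical axis) of the p53 targets (left) and the genes of G2 phase and mitosis (right) in each of 6 melanoma lines; each point is 1 gene's mean change over 3 arrays a group, and bars are medians over genes. The p53 targets of HMV-I (median 0.11) and MeWo (-0.023) lie near 0, while the mitotic genes have medians below 0 in all 6 lines, from -0.61 in 92-1 to -0.14 in C32TG.

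For the mitotic genes no difference from the other lines was called. Of 31 in this fit 0 differed in either direction (3 higher and 5 lower at an unadjusted p below 0.05 in limma), with a median difference of -0.041. Their median change was -0.43 in HMV-I, between that of 92-1 (-0.61) and HMV-II (-0.32), and it was -0.29 in MeWo, -0.19 in Colo679 and -0.14 in C32TG. Genes with a higher change in HMV-I than in the other lines included LPP (0.98 ± 0.11), ALPP, placental alkaline phosphatase (0.84 ± 0.10), THBS1 (0.75 ± 0.17) and CHAC1 (0.62 ± 0.085). Another probe of LPP had a difference of 0.029 (adjusted p = 0.952) and another of THBS1 1 of 0.32 (adjusted p = 0.259), neither called. For CHAC1 the changes were 0.24 in 92-1, 0.047 in C32TG, 0.65 in Colo679, 0.44 in HMV-II and 0.52 in MeWo, all smaller than in HMV-I. The number of calls fell from 474 to 178 and 241 without arrays 1 and 2 of the unirradiated HMV-I group, and to 260 and 269 without arrays 2 and 3 of its 3 h group. Among the calls of this comparison 74.5% were in the upward direction, 70.8% with median centring and 56.8% with values as deposited.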

How the data were processed

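RNA of HMV-I and the other lines was extracted with ISOGEN and RNeasy, labelled with biotin and hybridised to single-colour CodeLink whole-genome arrays, per the labels' protocols. The deposited values are spot intensity on a linear scale. Between 50.1% and 50.5% of the probes of each HMV-I array lay below 1 with missing values counted as low, as for intensity relative to an array's median spot; scaling and software: not given in the sources used here. HMV-I arrays had 1000 to 1816 missing values. No column was unassigned. Array number and brightness limit the precision: the median half-width of a 95% interval of a change was 0.20.

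From the deposited intensity, log2 values were quantile normalized over all arrays. Probes with a value on all 18 HMV-I arrays and a mean above the 40th percentile (-0.35) were kept. limma 3.58.1 (R 4.3.3) was fitted to 6 group means, with eBayes and a trend, two-sided, at a Benjamini-Hochberg adjusted p below 0.05 over all kept probes; the comparison across lines used 36 arrays. The platform annotation named 23472 probes with 1 symbol, 905 with several (not used) and left 29982 unnamed; 23434 matched RefSeq by Entrez identifier. On simulated data, 74% of changes of 0.5 and 98% of changes of 1 on the log2 scale were recovered in the first comparison (29914 probes). In the difference between beams 25% and 86% were. The simulated noise was independent between probes, without shifts shared by the probes of an array, so these shares need not hold for the real arrays.

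The members and the 28 gene lists were chosen with earlier results of these data known, so no p-value is given for a list. The text names up to 15 genes a direction with the largest called changes without overlap, up to 8 in differences of differences, and up to 5 members of smallest p per list, plus CDKN1A, MDM2, GDF15, NEAT1, ATF3 and PIF1; other list members were named after their values were seen. Alternatives were median centring, values as deposited, normalization of the 18 arrays alone, no filter on level, fewer values required, eBayes without a trend, a fit to the 6 arrays compared, the replicate number as a block, and leaving out each array. Unirradiated and 3 h arrays of the same number deviated together with r = 0.11, -0.10 and 0.20 for numbers 1, 2 and 3. The highest r with an array of another number was 0.042, 0.17 and 0.046. The numbers were not treated as pairs in the main fit and entered only as the block named above.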

Additional observations from a re-analysis of the deposited data

Results flagged for a closer look

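Some changes in HMV-I differed from the change after X-rays or from the change in the other lines, by a test of the difference itself in limma. For carbon ions against X-rays at 3 h, 855 probes did. The genes named for this difference were CER1 (1.09), ZFAT (1.02), LPP (0.93), VILL (0.90), CCN1 (0.87) and CHAC1 (0.64) in the upward direction, and OLR1 (-1.33), SPDL1 (-1.21), PIP5K1A (-1.20), TFRC (-1.17), TAPBP (-1.14), KIF4A (-1.05), TPX2 (-0.92) and NUSAP1 (-0.85) in the downward one. CER1 and VILL were not called after carbon ions and fell after X-rays (-0.75 and -0.82), with arrays at 3 h after X-rays of -0.27, -1.42 and -0.35 for CER1, of which 1 stands apart, and of -0.01, -0.70 and -0.40 for VILL. The calls of CER1 and PIP5K1A were lost under other settings. For LPP another probe had a difference of 0.31 between beams, which was not called (adjusted p = 0.337).

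For HMV-I against the mean of the other 5 lines, 474 probes differed. The genes named were ZAP70 (1.05), LPP (0.98), ALPP (0.84), RINL (0.80), THBS1 (0.75) and CHAC1 (0.62) with a higher change in HMV-I, and SESN1 (-1.11), GADD45A (-0.84), PLK3 (-0.82), GDF15 (-0.80), POLH (-0.76), ATF3 (-0.75), SESN2 (-0.73) and FAS (-0.73) with a lower one. For GDF15 the change in HMV-I (0.051) was like that in Colo679 (0.090), HMV-II (0.098) and MeWo (0.034), and only 92-1 (2.24) and C32TG (1.80) lay far above it. ZAP70 and RINL were not called within HMV-I, at 0.43 and 0.28, and ZAP70 lost its difference under other settings, as did THBS1. Another probe of LPP had a difference from the other lines of 0.029 (adjusted p = 0.952), and another of THBS1 was not called (adjusted p = 0.259).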

How the results depend on the processing

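The 4312 probes called at 3 h after carbon ions were 5341 with median centring, of which 3298 were shared in the same direction, and 5258 with values as deposited (3210 shared). A fit to the 6 arrays compared, with fewer residual degrees of freedom, gave 2723, and leaving out 1 array gave 1920 to 4101. For 3 h against 1 h the count was 1052, 500 with the 6 arrays alone and 461 to 1022 with 1 array left out. It was 855 for the difference between beams (248 to 1172 with 1 array left out), and 474 for the difference from the other lines (178 to 533). With the replicate number as a block, the counts were 4182, 1092, 916 and 629. Directions turned only with another probe of the same gene: LPP -0.0062, PIGS 0.10, INKA2 -0.21, FOSL2 -0.12 and -0.0029, COX6C 0.39 (called the other way, adjusted p = 0.00641), SRSF1 0.17, NPM1 0.0054 and PSMD14 0.070. The cause of these disagreements was not tested. With 1 array left out 22 to 25 mitotic genes fell. Dim probes with missing values were not analysed here.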

Other observations

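Genes with a ZNF symbol, most of them zinc-finger repressors, were looked at after several of them appeared among the largest rises, so their counts are descriptions of a group chosen on its values. Of 327 measured, 53 rose and 13 fell at 3 h after carbon ions, against 9.08% and 5.59% of all genes, with a median of 0.075 where all genes had 0.027. At 1 h, 3 were higher and 13 lower (against 2.43% and 1.29% of all genes). From 1 h to 3 h 38 were higher and 4 lower (against 1.89% and 2.41%), led by ZNF420 (0.65), ZNF232 (0.64) and ZNF202 (0.61). The last 2 comparisons share the 1 h arrays. After X-rays 55 rose and 18 fell (against 10.2% and 5.54% of all genes). The split at 3 h after carbon ions was 37 and 23 with median centring and 34 and 25 with values as deposited, and 25 rose without array 1 of the unirradiated group and 31 without array 3 of the 3 h group.

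Counts in housekeeping groups stand against 9.08% of all genes that rose and 5.59% that fell. Of 26 respiratory chain subunits 1 rose and 1 fell, of 17 ribosomal proteins 0 rose and 1 fell (0 and 3 at an unadjusted p below 0.05 in limma), of 30 splicing factors 1 rose and 4 fell, of 20 genes of ubiquitin and the proteasome 1 rose and 2 fell, and of 22 genes of the MYC network 2 rose and 1 fell. With median centring 6 respiratory chain subunits, 8 genes of ubiquitin and the proteasome and 9 of the MYC network rose. COX6C, a subunit of cytochrome c oxidase, was at -0.75 by 1 probe and 0.39 by another, both called. Of 10 melanocyte genes 1 rose and 0 fell (5 and 0 at an unadjusted p below 0.05 in limma).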
